A study of Caenorhabditis elegans with 4 samples.

Results

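Transcripts were compared between C. elegans larvae treated to deplete TOP-2 and DPY-27 together (strain AM11) and larvae of the strain CA1200. Every row of the authors' deposited table for this comparison was taken, 16927 genes, against 17491 genes in this table or that of the series' other comparison. The AM11 libraries are 2 of the 4 samples. The second pair of samples, from strain AM12, shares its CA1200 controls with this comparison and is not described here.

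DNA topoisomerase II cuts both strands of a DNA duplex, passes another duplex through the gap and so removes supercoils and tangles, and TOP-2 is the worm's main enzyme of this kind. DPY-27 is the subunit that sets condensin DC apart from other condensins. This complex is loaded at recruitment sites on both X chromosomes of the hermaphrodite, spreads along them and lowers their transcription, which brings X expression to the level of the male with a single X. In the auxin-inducible degron system, a protein with a degron tag is destroyed by the proteasome when auxin is given and the cells also make TIR1, an F-box protein from plants.

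The AM11 larvae carried top-2::degron::GFP and dpy-27::degron::GFP. They were in stage L2/L3, 24 h after starved L1 larvae had been put on food at 22 °C, and spent a further 2 h on 1 mM auxin. The controls were CA1200 after 2 h on auxin, and CA1200 is known as a strain that makes TIR1 from the eft-3 promoter, which is active in most somatic cells. Whether AM11 makes TIR1 too, and how the CA1200 larvae were grown, is not stated in the labels read here. Auxin was given to both groups, so its own effect is in both. RNA was poly(A)-selected and made into stranded libraries, and the design text gives 2 biological replicates, with no word on whether these were separate cultures. The p-values therefore measure the spread between these libraries, which may be technical in part. The study's title concerns how topoisomerases help condensin DC to move along DNA. The comparison asks which transcripts differ after a treatment meant to remove both TOP-2 and DPY-27.

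The authors' deposited table holds a mean normalized count per gene and no value per library. Those means turned out to be exact sums of whole multiples of 4 steps, 1 step per library, so the reads of each library could be worked back for 16808 genes (99.3%). The AM11 libraries, named A and B here, held 10333406 and 9128499 reads in these genes, and the CA1200 libraries A and B held 13798122 and 11611380. The letters follow the size factors (0.988 and 0.849 in AM11, 1.21 and 0.992 in CA1200), and do not say which library is the first replicate in the labels. On log2 normalized counts, the AM11 libraries correlated at r = 0.961 and the CA1200 libraries at r = 0.969 across genes, against 0.821 to 0.830 between the groups. The degron acts on protein, so the transcripts of the tagged genes do not check the labels. For dpy-27 there were 1365 and 1038 normalized counts in AM11, against 1666 and 957 in CA1200, and for top-2 there were 934 and 1238 counts in AM11 A and B, against 1415 and 1031 in CA1200 A and B. The groups overlapped for both genes, and neither passed the test.

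The AM11 and CA1200 libraries differed in the tissues they represented, which may bear on many of the results. Genes of pharyngeal muscle, the muscle of the feeding organ in the head (myo-1, myo-2, myo-5, tni-4 and tnc-2), summed to 52520 and 38063 normalized counts in the AM11 libraries, against 580 and 488 in the CA1200 libraries. All 5 were higher in both AM11 libraries, none was at 0 in any library, and the CA1200 mean was 1.18% of the AM11 mean. The 9 genes of the rectum and tail summed to 2355 and 1664 in AM11, against 10753 and 8962 in CA1200, and all 9 were lower in both AM11 libraries. Germline genes summed to 4717 and 7561 in AM11, against 1226 and 1002 in CA1200, with 9 of 9 higher in both AM11 libraries. For 9 genes used in most neurons the sums were 27502 and 23167 in AM11, against 45801 and 37842 in CA1200. Of these, 8 of 9 were lower in both AM11 libraries. Such counts are of groups that do not overlap, not of calls. Over all recovered genes whose mean reached 10, 33.7% were higher and 32.5% lower in this sense. Coelomocyte genes summed to 358 and 408 in AM11, against 91.5 and 141 in CA1200. Sums over the 4 of 7 body wall muscle markers with recovered reads, which leave out unc-54, (38931 and 33719 in AM11, against 32130 and 14891 in CA1200) stood higher in AM11. Those for 8 of 9 markers of the intestine (42172 and 43900 in AM11, against 25477 and 52274 in CA1200) and 5 of 6 of the epidermis (4109 and 14402 in AM11, against 18989 and 14375 in CA1200) overlapped between the groups. In such whole-animal samples, fewer cells of a type and less RNA per cell cannot be told apart. The part of these tissue differences in each result was not tested.

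In the authors' deposited table, 2105 of 14958 tested genes (14.1%) were higher in AM11 with an adjusted p below 0.05, and 1118 (7.47%) were lower, so that 21.5% were called in either direction. The remaining 1969 genes had no adjusted p, and all of these had a mean normalized count of 2.18 or less. The library values behind these calls, which come from the same reads and so are no check of them, were looked at next. Both AM11 libraries lay above both CA1200 libraries for 2103 of the 2105 genes called higher, and below them for 1104 of the 1107 genes called lower whose reads were recovered. Over all 13084 recovered genes whose mean reached 10, both AM11 libraries lay above both CA1200 libraries for 33.7% and below them for 32.5%.

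Over the genes with recovered reads, transcripts of the X took a larger share of the reads in AM11. X genes made up 23.3% and 21.7% of the normalized reads in these genes in the AM11 libraries, against 15.5% and 14.5% in the CA1200 libraries. Genes not recovered, whose means were 9485 or more, could not be split by library and are left out of all shares given here. Both AM11 libraries lay above both CA1200 libraries, with means of 22.5 ± 1.18% in AM11 and 15.01 ± 0.713% in CA1200 (SD, n = 2 each). The exact two-sided permutation test gave p = 0.333, the smallest that 2 libraries against 2 allow. Over the same recovered genes, each autosome took a smaller share in AM11 than in CA1200. Chromosome II took 14.8% and 15.5% in AM11, against 17.2% and 17.1% in CA1200, and chromosome IV took 14.8% in both AM11 libraries, against 15.8% and 16.1% in CA1200. Chromosome V took 17.1% and 17.2% in AM11, against 17.6% and 19.1% in CA1200. The X share includes single abundant pharyngeal genes such as myo-2, so the levels of typical genes are given next.

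Over genes whose mean reached 10, the median log2 fold change in the authors' deposited table was 0.54 on the X and between -0.15 (chromosome II) and -0.12 (chromosomes I and III) on the autosomes. The interquartile range of the X, 1.12, lay inside the range of the autosomes, 0.84 on chromosome III to 1.37 on chromosome V. On the X 571 of 2330 tested genes were called higher (24.5%) and 53 lower (2.27%) in the authors' deposited table. Among autosomes, the share called higher ran in the authors' deposited table from 8.99% on chromosome III to 14.6% on chromosome V, and the share called lower from 6.32% on chromosome I to 11.3% on chromosome V. Both AM11 libraries lay above both CA1200 libraries for 1257 of 2081 X genes (60.4%), against 28.6% of autosomal genes. They lay below them for 9.71% of X genes, against 36.8% of autosomal genes.

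**Figure D1:**
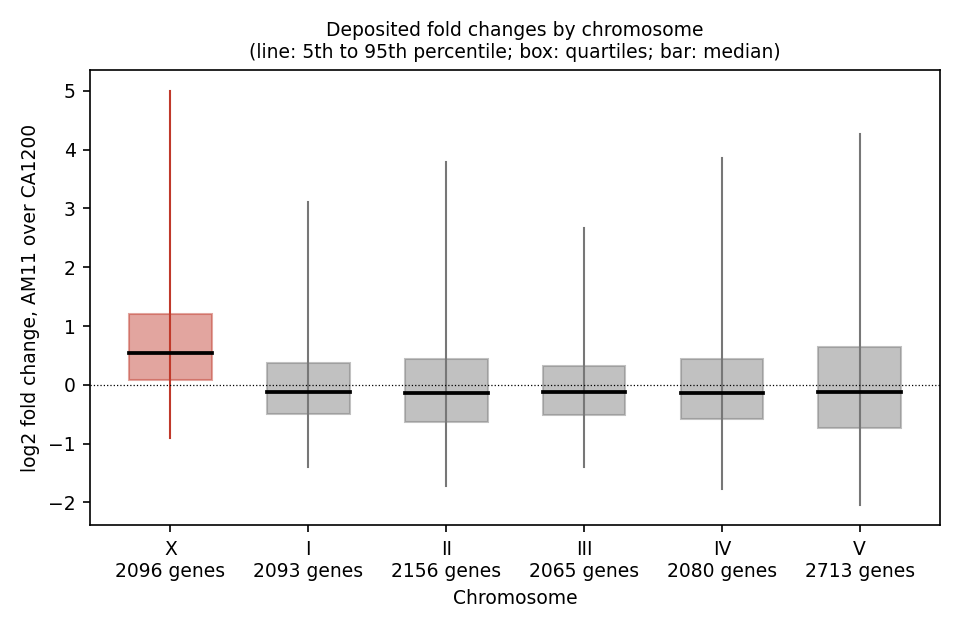
Log2 fold changes of AM11 over CA1200 from the authors' deposited table, by chromosome, for genes whose mean normalized count reached 10; the bar is the median, the box the quartiles and the line the 5th to 95th percentile. The X median is 0.54, and the autosomal medians lie between -0.15 and -0.12.

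The difference between X and autosomes was then taken within single pairs of libraries. For AM11 library A the median log2 ratio of X genes minus that of autosomal genes was 0.70 over CA1200 library A and 0.77 over CA1200 library B. For AM11 library B it was 0.55 and 0.66. In all 4 pairs X genes stood higher than autosomal genes. Between libraries of 1 group the same difference was 0.18 (AM11 library A over B) and 0.05 (CA1200 library A over B), so the AM11 libraries differed from each other by less than either differed from a control. Set against the mean of both controls, the AM11 libraries gave 0.74 and 0.61. From the authors' deposited fold changes, the difference was 0.67.

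**Figure D2:**
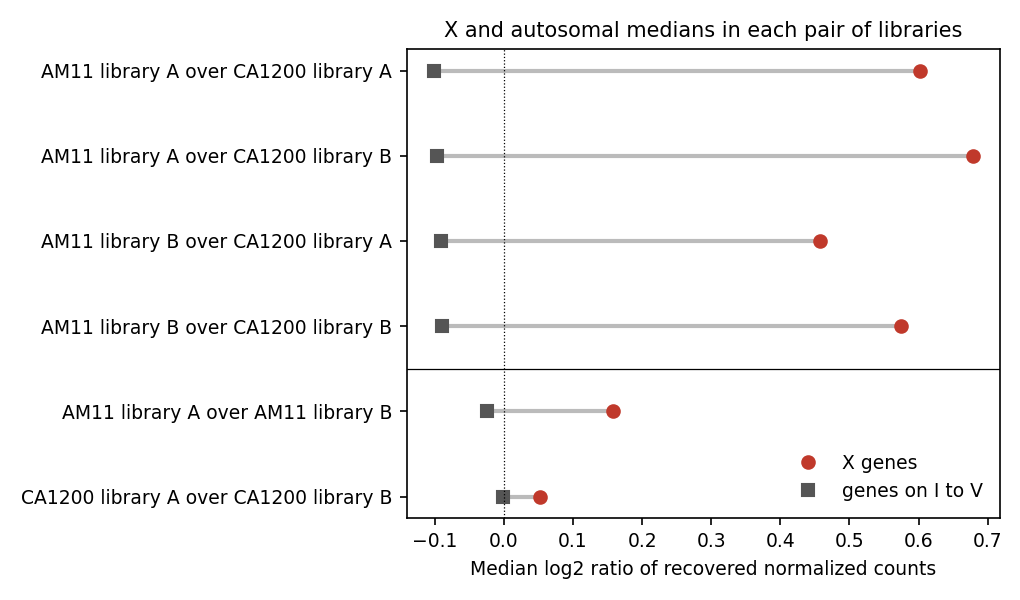
Median log2 ratio of recovered normalized counts for X genes (circles) and genes on I to V (squares), in each pair of libraries; AM11 over CA1200 above the line, libraries of the same group below it. The gap is 0.55 to 0.77 in the 4 pairs of AM11 over CA1200 and 0.05 and 0.18 within groups.

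The gap between X and autosomes held over the range of expression, although both medians moved with the level. At a mean of 10 to 50 normalized counts, the medians in the authors' deposited table were 1.09 on the X and 0.40 on the autosomes, a gap of 0.69. At 50 to 200 they were 0.66 and -0.03, with a gap of 0.68, and at 200 to 1000 they were 0.50 and -0.15, with a gap of 0.65. For genes at 1000 or more the authors' deposited table gave 0.44 on the X and -0.31 on the autosomes, a gap of 0.75. Genes of low mean thus stood higher on the X and on the autosomes alike. Of the 2398 recovered genes with a mean of 10 to 50, 0.334% had 3 reads or fewer over both AM11 libraries, against 7.76% over both CA1200 libraries. The mean is taken over both groups, so genes low in 1 group entered through their level in the other.

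Most X genes lay within 1 of 0 on the log2 scale. Of X genes 48.1% had a log2 fold change between 0 and 1 in the authors' deposited table, against 26.5% of autosomal genes, and 17.4% lay between -1 and 0, against 44.5% of autosomal genes. Between 1 and 2 lay 15.3% of X genes, against 6.02% of autosomal genes. At 4 or more the shares were 6.92% on the X and 4.02% on the autosomes, and under -1 they were 4.29% on the X and 12.98% on the autosomes. Leaving out every gene at an absolute log2 fold change of 2 or more gave a gap between X and autosomes of 0.62. Leaving out the members of the lists for head, tail, gonad and secreted families gave 0.67.

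Along the chromosomes the X medians stayed level. Each chromosome was divided into 6 groups of equal size in the order of its genes in RefSeq (WBcel235). The X medians in the authors' deposited table were 0.54, 0.53, 0.49, 0.56, 0.52 and 0.58 from the left end to the right end. The 30 autosomal groups ranged from -0.23, at the right end of chromosome IV, to -0.03, at the right end of chromosome V, so that none reached the lowest group of the X. The share of genes called higher in the authors' deposited table was 24.6% to 29.8% in the groups of the X and 6.47% to 20.9% in those of the autosomes. The share called lower was 1.75% to 3.81% on the X and 4.41% to 16.3% on the autosomes, with its highest value at the left end of chromosome V.

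**Figure D3:**
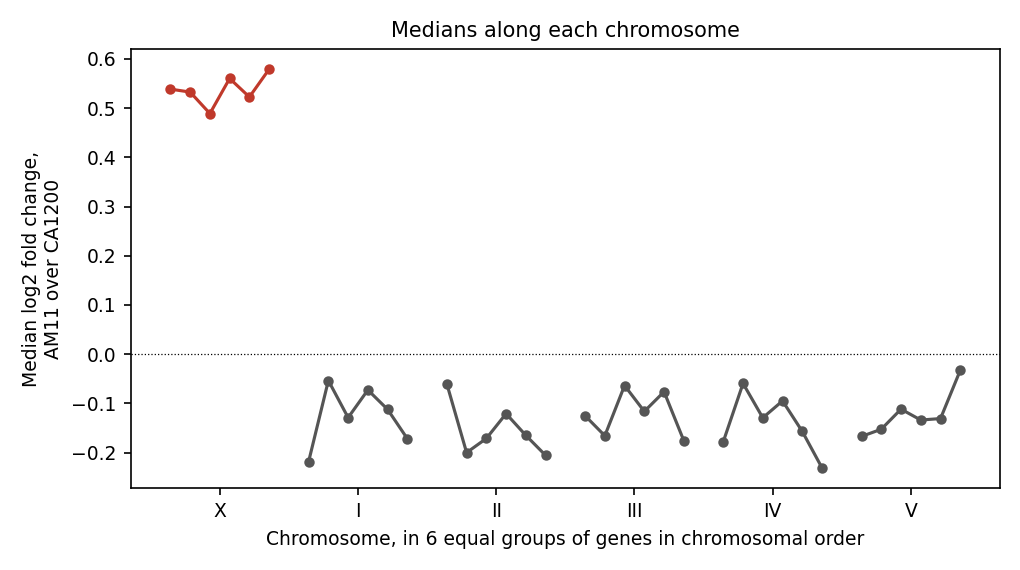
Median log2 fold change of AM11 over CA1200 from the authors' deposited table in 6 groups of neighbouring genes per chromosome, from left end to right end. The 6 X medians lie between 0.49 and 0.58 and the 30 autosomal medians between -0.23 and -0.03.

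X members of the lists for general cell functions were then looked at, although these lists hold some genes of single tissues, such as the tubulin gene mec-7 of touch receptor neurons and the aquaporin gene aqp-8 of the excretory system. Over the lists of cell machinery, metabolism and stress, 43 X genes had a median of 0.37 in the authors' deposited table, with 32 of them above 0, 5 called higher (aqp-8 among them) and 1 called lower (mec-7). The 5 called higher are 11.6%, against 26.1% of all X genes whose mean reached 10. The 348 autosomal members had a median of -0.16 in the same table, with 121 above 0, 10 called higher and 37 called lower. By library, the X members stood at medians of 0.38 (A) and 0.36 (B) over the CA1200 mean, and the autosomal members at -0.22 (A) and -0.11 (B). The gap, 0.53, was smaller than the 0.67 of all genes. For cell machinery alone it was 0.45, over 14 X genes. Over the 12 of them with recovered reads it was 0.35 for AM11 library A and 0.17 for library B, so that its size rests on the library. For metabolism and stress, over 29 X genes, it was 0.88, with 0.95 for AM11 library A and 0.88 for library B. The X median there, 0.37, was no higher than the 0.41 of cell machinery. Over genes with recovered reads the order was the other way, with X medians of 0.40 (A) and 0.40 (B) over the CA1200 mean for metabolism and stress. For cell machinery these were 0.27 (A) and 0.19 (B). The autosomal medians were -0.51 for metabolism and stress and -0.04 for cell machinery, so the larger gap lay mainly in the autosomal members.

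Enzymes coded on the X lay on both sides of 0. Of the 29 X genes of metabolism and stress 8 were not above 0 in the authors' deposited table. The 6 X short-chain dehydrogenases had a median of -0.16 in the authors' deposited table and the 4 X genes of metal handling one of -0.06, and none of these 10 was called. Enzymes of central metabolism stood higher, and the genes described next are chosen from those. The succinate dehydrogenase subunit gene sdha-1 had 9674 and 8246 normalized counts in the AM11 libraries, against 6185 and 6219 in the CA1200 libraries. Its groups did not overlap, but its log2 fold change, 0.53 ± 0.30 in the authors' deposited table, did not pass the test (adjusted p 0.221). All 5 X genes of the tricarboxylic acid cycle (sdha-1, sucl-1, idh-2, idhb-1 and suca-1) lay higher in both AM11 libraries. So did 60.4% of all recovered X genes whose mean reached 10. The log2 fold changes of the 5 genes were between 0.18 and 0.74 in the authors' deposited table, and none passed the authors' DESeq2 test. At an unadjusted p under 0.05 there were 1 of these 5, and limma called 0. For pfk-1.1, the phosphofructokinase of glycolysis, there were 4675 and 3788 normalized counts in AM11, against 2454 and 2091 in CA1200, and it rose by 0.90 ± 0.32 in the authors' deposited table, a call that limma did not make (adjusted p 0.0576). The gene for trehalose-phosphate synthase, tps-1, had 2710.4 and 2742 counts in AM11 A and B, against 1627 and 1429.8 in CA1200 A and B, and rose by 0.83 ± 0.31 in the authors' deposited table. The propionyl-CoA carboxylase subunit genes pcca-1 and pccb-1 stood at 0.58 ± 0.30 and 0.30 ± 0.31 in the authors' deposited table without passing the test. The changes named here that did not pass the test lay between 0.18 and 0.74, beside a median SE of single genes of 0.41 in the authors' deposited table. Those of pfk-1.1 and tps-1, which passed it, were larger.

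Other X genes of known pathways had larger fold changes. In signalling, the authors' deposited table had 6 of 22 X genes (innexins and chemoreceptors included) called higher and none called lower, and 21 of 146 autosomal genes called higher and 27 lower. The X share called higher, 27.3%, is close to the 26.1% over all X genes whose mean reached 10. The autosomal share called higher, 14.4%, is close to the 12.8% of all such autosomal genes. The autosomal share called lower, 18.5%, stood above the 9.46% of all such autosomal genes. Of all such X genes 2.53% were called lower, so that none of 22 is near that share. The Ras GTPase-activating protein gene gap-1 had 933 and 669 counts in AM11 A and B, against 386 and 293 in CA1200 A and B, and rose by 1.24 ± 0.37 in the authors' deposited table. For daf-9, the cytochrome P450 that makes dafachronic acids, there were 329 and 541 normalized counts in the AM11 libraries, against 165 and 179 in the CA1200 libraries, and the log2 fold change in the authors' deposited table was 1.34 ± 0.41. The cholesterol transporter gene ncr-1 and the zinc finger gene sma-9, of the TGF-beta pathway for body size, rose by 1.09 ± 0.37 and 1.06 ± 0.38 in the authors' deposited table. The groups of these 4 genes did not overlap, as for nearly all genes called higher, and limma did not call sma-9 (adjusted p 0.0697). The gene for cystathionine beta-synthase, cbs-1, rose by 1.43 ± 0.39 in the authors' deposited table, with 1039 and 654 normalized counts in the AM11 libraries, against 341 and 285 in the CA1200 libraries. Likewise osm-11, coding for a secreted Notch co-ligand, had 22174 and 16842 normalized counts in AM11, against 8929 and 9558 in CA1200, and rose by 1.08 ± 0.32 in the authors' deposited table, without a call in limma (adjusted p 0.0665).

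The X genes with the largest positive Wald statistics, the log2 fold change over its SE, were genes of the pharynx. The pharyngeal myosin gene myo-2 had 30954 and 21265 counts in AM11 A and B, against 249 and 211 in CA1200 A and B, a log2 fold change of 6.83 ± 0.36 in the authors' deposited table. The calponin-like gene clik-2 had 7303 and 4979 normalized counts in the AM11 libraries, against 61.0 and 68.6 in the CA1200 libraries (6.57 ± 0.37 in the authors' deposited table). The ABC transporter gene pgp-14, active in the pharynx, had 6233 and 4711 normalized counts in AM11, against 136 and 124 in CA1200 (5.39 ± 0.34 in the authors' deposited table). The library groups of all 3, ranked on the same libraries, lay far apart, and the CA1200 sum of the pharyngeal muscle genes was 1.18% of that in AM11.

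Few X genes fell. The 5 with the most negative Wald statistics were col-172, cyp-13B1, haly-1, vem-1 and mec-7. The cuticle collagen gene col-172 had 143 and 390.0 counts in AM11 A and B, against 3335 and 4144 in CA1200 A and B, a log2 fold change of -3.81 ± 0.50 in the authors' deposited table. Its AM11 libraries differed from each other by more than its CA1200 libraries did. For haly-1, the histidine ammonia lyase that begins histidine breakdown, there were 3482 and 2557 normalized counts in the AM11 libraries, against 21472 and 12866 in the CA1200 libraries (-2.51 ± 0.39 in the authors' deposited table). The cytochrome P450 gene cyp-13B1 and the gene vem-1, for a progesterone receptor-like membrane protein, were at -2.86 ± 0.39 and -1.99 ± 0.36 in the authors' deposited table. The beta-tubulin gene mec-7, of the touch receptor neurons, had 3435 and 2227 normalized counts in the AM11 libraries, against 13117 and 9959 in the CA1200 libraries (-2.03 ± 0.37 in the authors' deposited table).

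On the autosomes the genes with the largest positive Wald statistics included genes of the head as well. Sarcomere genes of the pharynx led on chromosome I (myo-1), II (tnc-2, troponin C), IV (tni-4, troponin I) and V (myo-5, and tnt-4, troponin T), at 5.41 to 6.20 in the authors' deposited table. For myo-1 the libraries held 13192 and 10579.8 normalized counts in AM11, against 194 and 161 in CA1200. The pharyngeal gland genes phat-8 on II and phat-7 on V followed, at 4.74 ± 0.44 and 5.46 ± 0.34 in the authors' deposited table. On chromosome III daf-7, the TGF-beta ligand of the ASI head neurons, had 1306 and 699 normalized counts in AM11, against 15.7 and 14.1 in CA1200 (6.07 ± 0.50 in the authors' deposited table). The neuropeptide genes flp-1 and nlp-71 on IV were at 5.14 ± 0.36 and 5.48 ± 0.44 in the authors' deposited table. The germline Argonaute gene ppw-2 on I had 1076 and 1811 normalized counts in AM11, against 59.3 and 94.8 in CA1200, higher in AM11 library B than in A, as the germline sum was. Also among these genes were cpn-4 (calponin, I), suex-1 (II), idpp-15 and the small heat shock gene hsp-12.2 (both III), at 4.13 to 6.19 in the authors' deposited table. None of the 15 genes had overlapping groups, which is no further check, as they were ranked on the same libraries.

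The autosomal genes with the most negative Wald statistics included neuropeptides, genes of the tail, collagens and enzymes. The gene nlp-12, whose peptide is made by the tail neuron DVA, had 2236 and 1651 counts in AM11 A and B, against 18334 and 22751 in CA1200 A and B (-3.40 ± 0.34 in the authors' deposited table). The Wnt gene lin-44, made in the tail tip, was at -2.57 ± 0.35 in the authors' deposited table. The posterior Hox gene php-3 had 473 and 371 normalized counts in AM11, against 2001 and 2011 in CA1200 (-2.25 ± 0.33 in the authors' deposited table). Beside them stood the neuropeptide genes nlp-43, flp-15, nlp-20 and nlp-17, at -3.26 to -2.52 in the authors' deposited table. The library groups of these 7 genes, ranked on the same libraries, did not overlap, and their CA1200 libraries were close to each other.

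Enzyme genes and the lipid-binding gene far-3 fell too, some with a wide spread between libraries of the same group. The short-chain dehydrogenase gene dhs-23 had 8.09 and 18.9 counts in AM11 A and B, against 702 and 2529 in CA1200 A and B (-6.92 ± 0.67 in the authors' deposited table). For far-3, whose product binds lipids such as retinol, there were 156 and 258 normalized counts in the AM11 libraries, against 6177 and 15601 in the CA1200 libraries (-5.72 ± 0.51 in the authors' deposited table), and for the glucocerebrosidase gene gba-2 there were 13.2 and 3.53 normalized counts in AM11, against 360.1 and 782 in CA1200 (-6.07 ± 0.65 in the authors' deposited table). In all 3 the groups were far apart although CA1200 library B was higher than A by up to 1.85 on the log2 scale. For gba-2 the AM11 libraries lay further apart on that scale than the CA1200 libraries did. The urocanase gene uroc-1, the step of histidine breakdown after that of haly-1, had 429 and 377 counts in AM11 A and B, against 9293 and 5683 in CA1200 A and B (-4.22 ± 0.38 in the authors' deposited table). Both histidine genes were thus lower in both AM11 libraries, one on the X and the other on IV. Also named by rank were dhs-8 and the collagen gene col-38 (II), mtd-1 (I) and the patched-related gene ptr-22 (V), at -4.14 to -2.71 in the authors' deposited table.

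**Figure D4:**
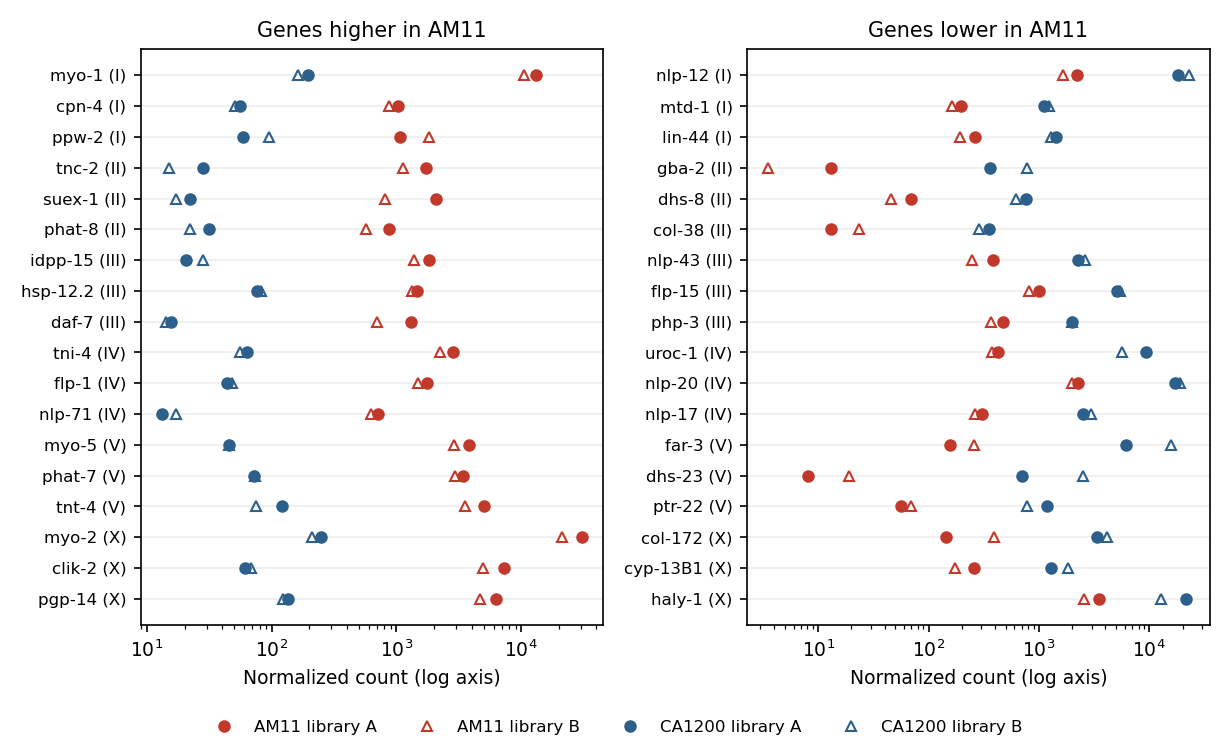
Recovered normalized counts (log axis) in AM11 libraries A and B (red) and CA1200 libraries A and B (blue) for the 3 genes with the largest positive and the 3 with the largest negative Wald statistic on each chromosome. For all 36 genes the 2 groups do not overlap, which is no further check, as the genes were ranked on the same libraries.

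The most abundant transcripts did not pass the test. The 12 genes of highest mean were eef-1A.1 and eef-2 (translation elongation), asp-1 (an intestinal protease), unc-54 (body wall muscle myosin), act-4 (actin), ant-1.1 (the mitochondrial ADP/ATP carrier), rack-1 and 5 ribosomal protein genes. Their log2 fold changes lay between -0.94 (asp-1) and 0.23 (unc-54) in the authors' deposited table. On the X lies act-4, at 0.19 ± 0.32 in the authors' deposited table. Their reads could not be told apart by library, as for all genes not recovered, whose means were 9485 or more.

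The following gene groups are described by their members called with an adjusted p below 0.05, beside 14.1% of all genes called higher and 7.47% called lower. Among regulators that specify pharyngeal cells, 6 of 9 tested members rose and none fell, with a list median of 3.63 in the authors' deposited table. The homeobox gene ceh-34, needed by pharyngeal neurons, had 239.8 and 154 normalized counts in AM11, against 17.3 and 19.2 in CA1200, and rose by 3.44 ± 0.51 in the authors' deposited table. The homeobox gene ceh-22, of pharyngeal muscle, had 133 and 131 counts in AM11 A and B, against 8.24 and 0 in CA1200 A and B (4.92 ± 0.79 in the authors' deposited table). No read of pha-2, of the pharyngeal isthmus, or of ceh-24 was found in either CA1200 library, and set against a floor of 3 reads over the group they were at least 30.8-fold and 15.4-fold higher in AM11. The FoxA gene pha-4, which is also active in the gut, stood at 0.30 ± 0.34 and tbx-2 at -0.18 ± 0.39 in the authors' deposited table, and neither passed the test.

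Genes of head chemosensory neurons changed in both directions, 11 of 22 higher and 5 lower. The receptor guanylyl cyclase genes of the thermosensory AFD neurons (gcy-8, gcy-18 and gcy-23) rose, with 159.9 and 82.5 counts in AM11 A and B, against 3.3 and 1.01 in CA1200 A and B for gcy-23 (5.76 ± 0.88 in the authors' deposited table). The homeobox gene ceh-37 had 779 and 674 normalized counts in the AM11 libraries, against 33.0 and 72.6 in the CA1200 libraries (3.79 ± 0.46 in the authors' deposited table), and odr-10, the diacetyl receptor of AWA, was at 3.59 ± 0.65 in the same authors' deposited table. Lower were osm-9 and ocr-2, TRP channel subunits that tail sensory neurons also use, gcy-35 and gcy-32, of oxygen-sensing neurons, and sra-6. For osm-9 there were 115 and 80.1 counts in AM11 A and B, against 406 and 214 in CA1200 A and B (-1.66 ± 0.48 in the authors' deposited table). The 5 X genes of this list with a mean of at least 10 had a median of 3.79 and the 13 autosomal genes one of -0.24.

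All 9 genes of the rectum and tail fell, with a median of -2.25 in the authors' deposited table. The Wnt gene egl-20 had 625 and 448 normalized counts in the AM11 libraries, against 3487 and 2222 in the CA1200 libraries (-2.41 ± 0.39 in the authors' deposited table). The posterior Hox gene nob-1 had 249 and 183 normalized counts in AM11, against 1149 and 1016 in CA1200 (-2.33 ± 0.35 in the authors' deposited table), and the smallest fall was that of the caudal homologue pal-1, at -1.16 ± 0.40 in the authors' deposited table. None of the 9 lies on the X. Among 13 tested genes of ventral cord motor neurons, 3 rose, the GABA synthesis gene unc-25 and the fate regulators unc-30 and unc-55, and the acetylcholine receptor subunit gene acr-5 fell, with 37.4 and 44.8 normalized counts in the AM11 libraries, against 177 and 209 in the CA1200 libraries. Of 13 glial genes, mls-2 and vap-1 rose, both on the X, and ptr-10 and grl-2 fell. For vap-1, coding for a CAP protein of the amphid sheath glia of the head, there were 794 and 599 normalized counts in AM11, against 46.1 and 41.3 in CA1200 (3.99 ± 0.39 in the authors' deposited table). The excretory system was split, with 4 of 12 higher, among them the aquaporin gene aqp-8 (2.23 ± 0.44 in the authors' deposited table), and 4 lower, among them the innexin gene inx-12 (-1.47 ± 0.34 in the authors' deposited table). Of 12 seam cell genes only lin-22 passed the test, a Hairy-related repressor, with 139.6 and 102 normalized counts in AM11, against 13.2 and 7.06 in CA1200.

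Oocyte and maternal genes rose in 11 of 15 cases and none fell, with a median of 3.51 in the authors' deposited table and no member on the X. The chitin-binding eggshell proteoglycan gene cpg-2 had 246 and 402 counts in AM11 A and B, against 6.59 and 17.1 in CA1200 A and B (4.80 ± 0.57 in the authors' deposited table). The yolk receptor gene rme-2 had 77.9 and 128 normalized counts in the AM11 libraries, against 4.12 and 6.05 in the CA1200 libraries, and the RNA-binding protein gene mex-5 had 121 and 193 normalized counts in AM11, against 11.5 and 4.03 in CA1200. AM11 library B was the higher of the AM11 libraries for all 3, as for the germline sum. Oocytes form in later stages than those labelled here. None of the 3 major sperm protein genes found had enough reads to be tested. In the somatic gonad, lag-2, the Notch ligand of the distal tip cell, and inx-9, a gap junction gene of the sheath, rose by 2.31 ± 0.67 and 4.00 ± 0.98 in the authors' deposited table. The LIM homeobox gene lim-7, of the gonadal sheath, fell and was at -0.93 ± 0.36 in the authors' deposited table, a call lost with centring on the autosomal median.

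Core members of the signalling pathways mostly did not pass the test. Of 11 Notch genes only the ligand gene lag-2 rose, and the receptor genes lin-12 and glp-1 were at 0.30 ± 0.36 and 0.88 ± 0.45 in the authors' deposited table. Among 14 genes of the EGF-Ras pathway, the ligand gene lin-3 rose, with 305 and 166 normalized counts in AM11, against 9.06 and 9.08 in CA1200 (4.70 ± 0.58 in the authors' deposited table), together with gap-1. The MAP kinase gene mpk-1 fell and was at -0.82 ± 0.32 in the authors' deposited table, a call lost with centring on the autosomal median and in limma (adjusted p 0.0509). The Ras gene let-60 stood at -0.01 ± 0.30 and the receptor gene let-23 at 0.77 ± 0.35 in the same authors' deposited table. Of 15 TGF-beta genes 2 rose, the ligand gene daf-7 and sma-9, and none of the receptors and Smads passed the test. In steroid hormone synthesis 2 of 9 rose, ncr-1 and daf-9, both on the X, and the receptor gene daf-12, also on the X, was at 0.33 ± 0.39 in the authors' deposited table.

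Gap junction genes of the innexin family had 8 of 24 members higher and 4 lower. The pharyngeal innexin gene inx-6 had 440.1 and 322 normalized counts in the AM11 libraries, against 10.7 and 4.03 in the CA1200 libraries (5.65 ± 0.57 in the authors' deposited table), and inx-3, on the X, had 621 and 377 normalized counts in AM11, against 24.7 and 19.2 in CA1200 (4.50 ± 0.47 in the authors' deposited table). Higher too were the germline innexin genes inx-14, inx-21 and inx-22, and lower were inx-12, inx-13, inx-20 and inx-10. The seven-transmembrane chemoreceptors, of which 625 were in the table, had an adjusted p in 259 cases. Of these, 20 rose and 28 fell in the authors' deposited table, 7.72% and 10.8%.

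Metabolic genes showed more falls than rises on the autosomes. Over the lists of metabolism and stress, 32 of 150 autosomal genes whose mean reached 10 fell and 5 rose. The share that fell, 21.3%, compares with 9.46% of all such autosomal genes, and the share that rose, 3.33%, with 12.8%. Of 29 X genes none fell and 5 rose (17.2%). Over all such X genes 2.53% fell and 26.1% rose, so that none of 29 lower is near the X share. Of 13 genes of peroxisomal beta oxidation, which shortens the side chains of ascaroside pheromones, 5 fell (acox-1.2, daf-22, acox-1.1, maoc-1 and ctl-2) and acox-1.5 rose. The thiolase gene daf-22 had 1957 and 2796 counts in AM11 A and B, against 8102 and 9507 in CA1200 A and B (-1.89 ± 0.35 in the authors' deposited table). Of 13 genes of the methionine cycle and phosphocholine synthesis, 4 fell, among them pmt-2, a phosphoethanolamine methyltransferase, with 4197 and 4724 normalized counts in the AM11 libraries, against 12681 and 10602 in the CA1200 libraries (-1.38 ± 0.31 in the authors' deposited table). The cystathionine gamma-lyase gene cth-2 also fell, to a log2 fold change of -2.14 ± 0.36 in the authors' deposited table, while cbs-1, on the X, rose. Gluconeogenesis and the glyoxylate cycle had pck-2, icl-1 and fbp-1 lower, and the trehalase gene tre-3 and tps-1 higher. For pck-2, a phosphoenolpyruvate carboxykinase, there were 11282 and 11964 counts in AM11 A and B, against 30366 and 31879 in CA1200 A and B (-1.42 ± 0.29 in the authors' deposited table). Glycolysis had aldo-2 and hxk-1 lower and pfk-1.1 higher of 17 tested. The tricarboxylic acid cycle had idh-1 lower and no gene higher of 20, and propionate breakdown had alh-8 lower of 10. The calls of hxk-1, alh-8 and ctl-2 were lost with centring on the autosomal median, and limma did not call fbp-1 or ctl-2.

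Among short-chain dehydrogenases 7 of 30 fell and 2 rose. Of 16 genes of metal handling 3 fell, the metallothionein gene mtl-1 and cdr-1 and cdr-6 of the cadmium-responsive family. For mtl-1 there were 209 and 152 normalized counts in the AM11 libraries, against 2336 and 6962 in the CA1200 libraries (-4.68 ± 0.53 in the authors' deposited table), with CA1200 library B well above A. Oxidative defence had 4 of 19 lower, sod-1, prdx-2, msra-1 and ctl-2, between -1.32 and -0.94 in the authors' deposited table, and the call of prdx-2, as that of ctl-2, was lost with centring. In the hypoxia list 2 of 9 fell, nhr-57 and phy-2, which are targets of the factor HIF-1. The osmotic list had 3 of 11 higher, osm-11, aqp-8 and the epidermal antimicrobial peptide gene nlp-29, and gpdh-2, for a glycerol-3-phosphate dehydrogenase, lower. None of 13 genes of autophagy and lysosomal lipases passed the authors' DESeq2 test, with 2 at an unadjusted p under 0.05 and 0 called by limma.

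The machinery of gene expression gave almost no calls. No member of the lists for RNA polymerase II and Mediator (32 genes), the spliceosome (29), the nuclear pore (26), aminoacyl-tRNA synthetases (33) or the cytosolic chaperonin (8) passed the test, with medians between -0.14 and 0.13 in the authors' deposited table. The share called over all genes tested was 21.5%, and of these 128 genes 0 were called by the authors' DESeq2 test. At an unadjusted p under 0.05 there were 4 of them, and limma called 0. Among 34 translation factors only iff-1, a germline copy of eIF5A, rose, with 743 and 1456 normalized counts in AM11, against 172 and 359 in CA1200. Of 20 genes of the proton pump V-ATPase only vha-18 rose. Tubulins had 4 of 16 lower, led by mec-12 and mec-7 of the touch receptor neurons, and 2 higher, tba-6 and tbb-6. For mec-12 there were 2796 and 1998 counts in AM11 A and B, against 12707 and 9803 in CA1200 A and B (-2.23 ± 0.35 in the authors' deposited table). Among basement membrane genes the laminin gene lam-3 rose, with 394 and 303 normalized counts in the AM11 libraries, against 65.1 and 25.2 in the CA1200 libraries, and the nidogen gene nid-1 and the fibulin gene fbl-1 fell.

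Short secreted proteins rose often. Of 28 tested nematode-specific peptide genes (nsp families) 18 rose and nspb-5 fell, and 12 of the 22 with a mean of at least 10 lie on the X. The X gene nspc-14 had 964 and 1303 normalized counts in AM11, against 35.4 and 25.2 in CA1200 (5.22 ± 0.41 in the authors' deposited table). Of the fip, fipr and cnc peptide genes 16 of 30 rose and cnc-3 fell, with 339 and 346 counts in AM11 A and B, against 6.59 and 4.03 in CA1200 A and B for fipr-1 (5.99 ± 0.58 in the authors' deposited table). Of CAP domain protein genes 7 of 10 rose and lon-1 fell. No read of scl-24 was found in either CA1200 library, and it was at least 18.8-fold higher in AM11 against the same floor. Transthyretin-like genes had 12 of 48 higher and 6 lower, from ttr-22, at 0 reads in CA1200 and at least 61.2-fold higher, to ttr-10, with 73.9 and 84.8 normalized counts in the AM11 libraries, against 875 and 1287 in the CA1200 libraries (-3.77 ± 0.39 in the authors' deposited table). Members of these families are alike in sequence, and reads that match several of them may have been split in counting, so single members are uncertain. Pharyngeal genes stood low in the CA1200 libraries in which these genes stood low, and the part of that difference in these lists was not tested.

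**Figure D5:**
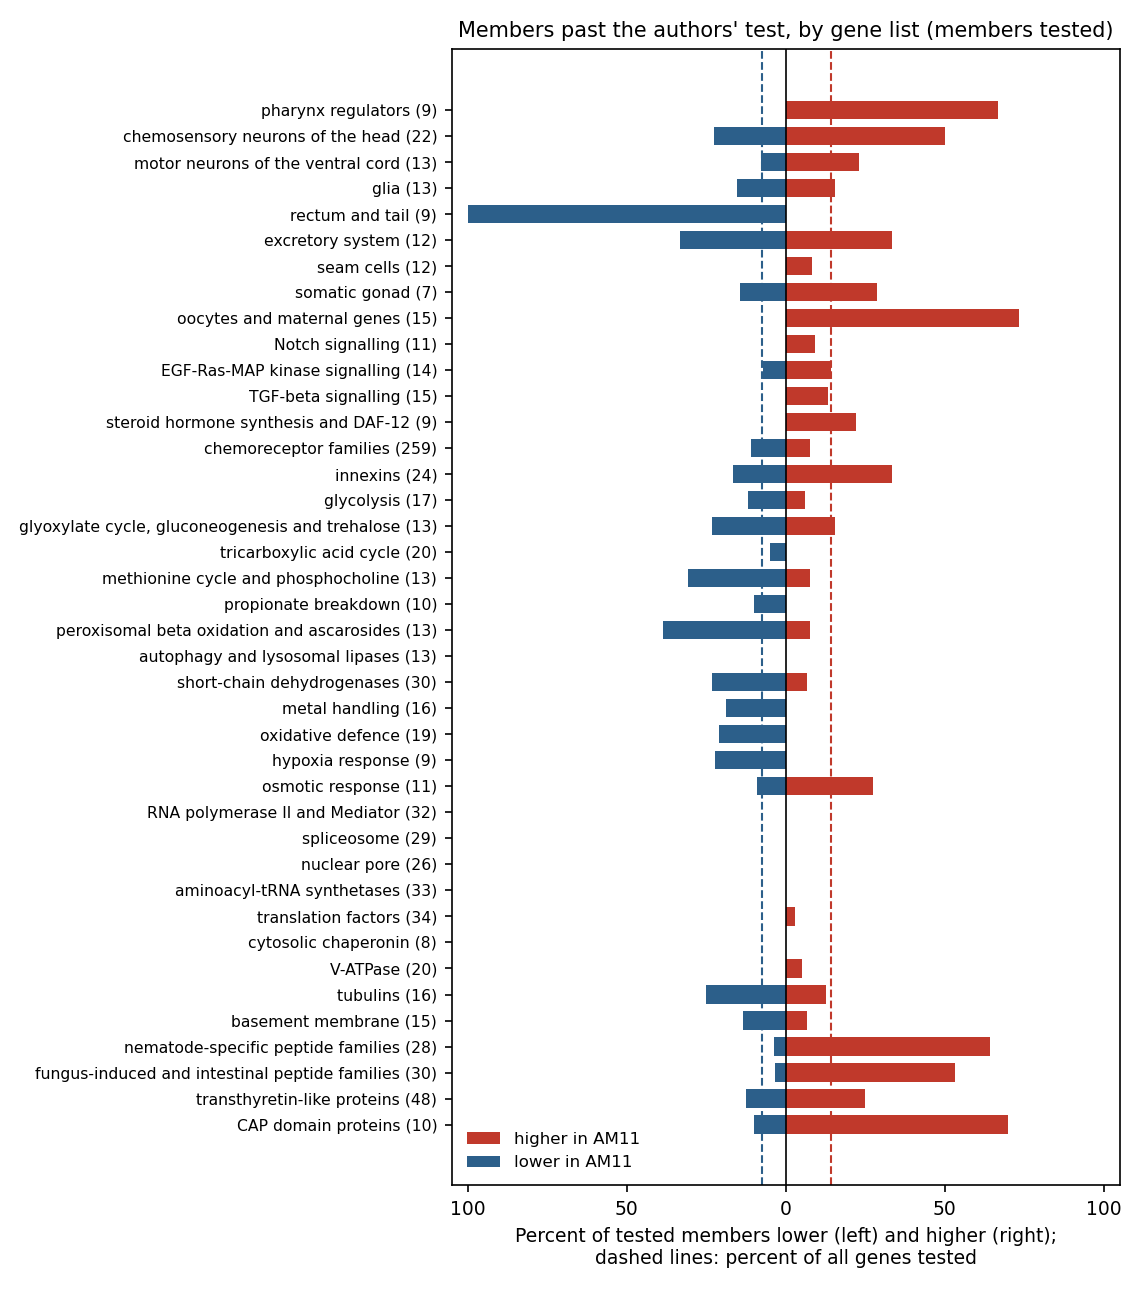
Percent of tested members called higher (right, red) and lower (left, blue) in AM11 by the authors' deposited table (adjusted p below 0.05), for 40 gene lists with a tested member; dashed lines mark 14.1% and 7.47%, the shares of all tested genes. Lists of oocytes, CAP domain proteins, pharynx regulators and nematode-specific peptides reach furthest right, at 73.3%, 70.0%, 66.7% and 64.3%, rectum and tail reaches 100% on the left, and the lists of gene expression machinery stay near 0.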

How the data were processed

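RNA-seq of whole larvae was compared between AM11 (2 libraries) and CA1200 (2 libraries). Tools named in the submitters' processing notes, without their roles, are HISAT2 2.2.1, HTSeq 0.13.5, Cufflinks 2.2.1, CASAVA 1.8 and DESeq2 1.30.0. The build of the genome is not given in the sources read, and coordinates are therefore left out. Per the file headers, the authors deposited for each gene a mean normalized count (a signal that is never negative), a log2 fold change of AM11 over CA1200 with its standard error, the Wald score, and a p-value and adjusted p-value from DESeq2. Whether counting used strand or split reads among similar genes is not stated there.

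A gene counts as called where its adjusted p is below 0.05. Sequences were not used, and 98.1% of genes matched a RefSeq entry (WBcel235), used for symbols and gene order. Each mean was solved as a sum of whole multiples of 4 steps, 1 per library. Of the 16927 genes, 16152 were solved from this table alone, and 16808 with the help of the AM12 table, which shares the controls. For all 15801 genes solved in both tables apart, the control reads were the same, and the solver was tested on simulated data. Which steps belong to AM11 follows from the deposited fold changes. The recovered values (python 3.11.15, numpy 2.4.6) served for values per library and for limma 3.58.1 on log2(normalized count + 1), mean at least 10. The X gap is the X median of log2 fold changes minus the autosomal one, mean at least 10, with no test, since genes are not replicates.

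Genes named by rank had a symbol and a mean normalized count not under 100. They were the 3 called genes with the largest positive and the 3 with the largest negative Wald score per chromosome, the 5 most negative of the X, the 12 of highest mean, and up to 4 called members per list by absolute score with no floor. Other list members were named after their values were seen. The comparison, its 41 gene lists and the marker genes were chosen with earlier results of these data known, so the lists are described and not tested.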

Additional observations from a re-analysis of the deposited data

How the results depend on the processing

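The count of genes called lower, 1118, was 678 at an adjusted p under 0.01, and the count called higher, 2105, was 1547. With a log2 fold change of 1 or more in size, Benjamini-Hochberg adjustment over every gene, a mean of at least 10, centring on the autosomal median (-0.13) or limma, the counts were 1829 to 2369 higher and 882 to 1104 lower, within 1.5 times of the counts reported. Centring took the share of calls that were higher to 72.9%, against 65.3%. Limma, chosen after seeing the data, shared 2655 of the 3223 calls. It was run only on recovered genes whose mean reached 10, and 3075 of the calls are in genes of that mean. Leaving out each library in turn in limma, with the lone library assumed to vary like the other group, gave 1092 to 1191 higher and 363 to 569 lower, with the fewest lower without CA1200 library B (76.6% of calls higher). These fits rest on 3 libraries. The X gap of 0.67 was 0.62 to 0.73 under the other gene filters and summaries and 0.61 to 0.74 without each library. Of 137 named genes tried, all kept their call with adjustment over every gene. With centring, 6 lost it (lim-7, mpk-1, hxk-1, alh-8, prdx-2 and ctl-2) and dpy-27 changed sign, to 0.0017 and still not called; the cause is the shift by the autosomal median. Limma gave a value for 132 of them, and 6 lost their call (mpk-1, sma-9, pfk-1.1, fbp-1, ctl-2 and osm-11, adjusted p 0.0509 to 0.0697). No paired analysis was possible because neither the deposited tables nor the recovered libraries carry replicate numbers. With 2 libraries per group, intervals from depth cover counting error only, and changes near the median SE of 0.41 cannot be told from the spread of single genes.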

Other observations

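Genes annotated as pseudogenes were measured too, and 36 of 235 tested were called higher and 7 lower in the authors' deposited table (14.1% and 7.47% over all genes). The share called higher, 15.3%, is near that over all genes. Those with a mean of at least 10 had a median of 0.37 in the authors' deposited table, over 118 genes, against -0.04 for 12860 protein-coding genes. These groups were not matched by level, and autosomal genes with a mean of 10 to 50 had a median of 0.40. How reads that match both a pseudogene and its parent gene were counted is not stated in the labels read here.

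Libraries of 1 group differed for some genes. Of 9233 recovered genes whose mean reached 100, the median absolute log2 ratio between libraries was 0.22 in AM11 and 0.34 in CA1200. In AM11 143 genes were at least 4-fold apart, 140 of them higher in library B, and in CA1200 there were 96, with 87 higher in library B. The noncoding RNA gene lep-5, on the X, had 184 and 8061 normalized counts in AM11 A and B, against 6160 and 13914 in CA1200 A and B. The gene hmit-1.1, of the myo-inositol transporter family, had 204 and 197 in AM11 A and B, against 20.6 and 497 in CA1200 A and B. The collagen gene col-157 had 241 and 1730 in AM11 A and B, against 1110 and 3381 in CA1200 A and B. These genes were chosen after their values were seen, and none of the 3 was called in the authors' deposited table.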
